A study of Mus musculus with 4 samples.

Results

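The genes of cholesterol and fatty acid synthesis were followed in KSP-positive and KSP-negative cells sorted from differentiated mouse embryonic stem (ES) cells. They were taken by name, with earlier results of these data known. They are 28 genes, 16 enzymes of sterol synthesis, 6 regulators of sterol and lipid supply and 6 enzymes of fatty acid synthesis. On the array they have 65 probe sets assigned to 1 gene each, of 45037 probe sets and 18193 named genes in all. All samples derive from 1 ES cell line of strain 129/Ola, CAG-GFP EB3, in which the ubiquitous CAG promoter drives GFP. All of them were differentiated for 18 days, first as embryoid bodies, with Activin at 10 ng/mL throughout. The 2 KSP-positive samples were GFP-positive cells bound by an antibody to kidney specific protein (KSP), a cadherin of kidney tubules. The 2 KSP-negative samples were GFP-positive cells not bound by it, and the samples of each fraction came from 2 independent experiments.

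Cells build cholesterol from acetyl-CoA through mevalonate, which is turned into isoprenoid units, then squalene, lanosterol and, by removal of methyl groups and shifting of double bonds, cholesterol. The transcription factors encoded by Srebf1 and Srebf2 (SREBPs) turn these enzymes on when sterols are scarce. Scap escorts them from the endoplasmic reticulum to the Golgi, where they are cut and released, and the Insig proteins hold Scap back when sterols are plentiful. Fatty acids are made from the same acetyl-CoA by Acly, Acaca and Fasn, and are then lengthened and desaturated.

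Expression is given as log2 of the microarray signal, after the 75th percentiles of the arrays were made equal and signals under 12.3 were set to that floor. Cdh16, the gene of KSP, gave no check of the sort: its log2 signal was 5.66 and 5.03 in the KSP-positive arrays and 5.30 and 4.71 in the KSP-negative arrays, which overlap (adjusted p = 0.816 from limma). A measure of RNA quality, the 3'/5' actin ratio, higher in degraded RNA, was 2.92 and 1.80 for KSP-positive cells (replicate 1, then 2), against 1.79 and 3.55 for KSP-negative cells. The 3'/5' ratio of Gapdh was 3.11 and 1.86 for KSP-positive cells, against 2.02 and 2.72 for KSP-negative cells. The highest Gapdh ratio was thus that of KSP-positive replicate 1, and the highest actin ratio that of KSP-negative replicate 2. By both measures these 2 arrays had the higher ratios, and the other 2 arrays the lower ones. The summed signal of 14 macrophage markers was 25726 and 12483 in KSP-positive arrays, against 2201 and 1791 in KSP-negative arrays, and 13 of 13 tested were higher at an adjusted p under 0.05, while C1qa lay at the floor in both KSP-negative arrays. That of 10 markers of pluripotent cells was 7917 and 8630, against 17051 and 29609, with 9 of 10 lower and none at the floor. That of 6 epithelial markers was 7471 and 9180, against 20113 and 25986, with 4 of 6 lower and none at the floor. That of 10 markers of visceral endoderm and liver was 11512 and 5106, against 21747 and 19007, with 3 of 10 lower and none at the floor. Of 6 adipocyte markers with a probe set, 2 could be tested and 1 was higher, Cidec and Lep lay at the floor in both KSP-positive arrays, and the sum was 772 and 1647, against 335 and 255. Of 7 mesenchymal markers 2 were higher and none lay at the floor, with a sum of 53542 and 37509, against 29092 and 22112. The sum of 7 neural markers was 465 and 702, against 801 and 1080, and Sox1 lay at the floor in both KSP-positive arrays. The part of these cell types and of RNA quality in the values below was not tested, and in such bulk samples fewer cells of a type cannot be told apart from less RNA per cell.

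Most of the genes had a lower mean signal in the KSP-positive fraction, but none passed the test, in which replicates were not paired. Of the 28 genes, 25 had a lower mean and 3 a higher mean, where 51.6% of all 12849 genes tested had a lower mean. The 28 genes were chosen with earlier results of these data known, so their comparisons with all genes are a description and not a test. Their median log2 difference, KSP-positive minus KSP-negative, was -0.39, against -0.03 over all genes. At an adjusted p under 0.05 from the unpaired limma fit, 0 of 28 were higher and 0 lower, where 1.84% of all genes were higher and 1.65% lower. Before adjustment, 7 of the 28 had a p under 0.05 and a lower mean and 0 a higher one, against 8.72% and 9.05% of all genes, and a plain t-test gave 0 after adjustment and 2 lower genes, Cyp51 and Scd1, at an unadjusted p under 0.05, where 4.44% of all genes were lower by that test.

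By the 2-fold threshold used in the study, 6 of the 28 genes were lower in KSP-positive cells and 0 higher, where 7.66% and 7.92% of all genes were. The 6 were Ebp, Mvd, Pmvk, Srebf2, Insig1 and Lss. In 15 of the 28 genes (53.6%) both KSP-positive arrays lay below both KSP-negative arrays, which was the case for 24.6% of all genes, and in 0 of 28 both lay above, against 24.4%. Without regard to direction, 48.9% of all genes did not overlap, a share close to that of the 28 genes. Leaving out KSP-positive replicate 1, which has a high actin ratio, left 2 of the 28 genes over 2-fold lower, Ebp and Srebf2 (7.14%, against 7.25% of all genes), with 23 of 28 means lower (against 50.9% of all genes) and a median of -0.42. Leaving out KSP-negative replicate 2, which has the highest ratio, left 5 (17.9%, against 6.45%). Between the 2 arrays of low ratio, KSP-positive replicate 2 minus KSP-negative replicate 1, only Srebf2 was over 2-fold lower (1 of 28, or 3.57%, against 6.80% of all genes), and the median of the 28 was -0.31. Between the 2 of high ratio, KSP-positive replicate 1 minus KSP-negative replicate 2, 8 were over 2-fold lower (28.6%, against 17.5% of all genes), and the median was -0.76.

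**Figure D1:**
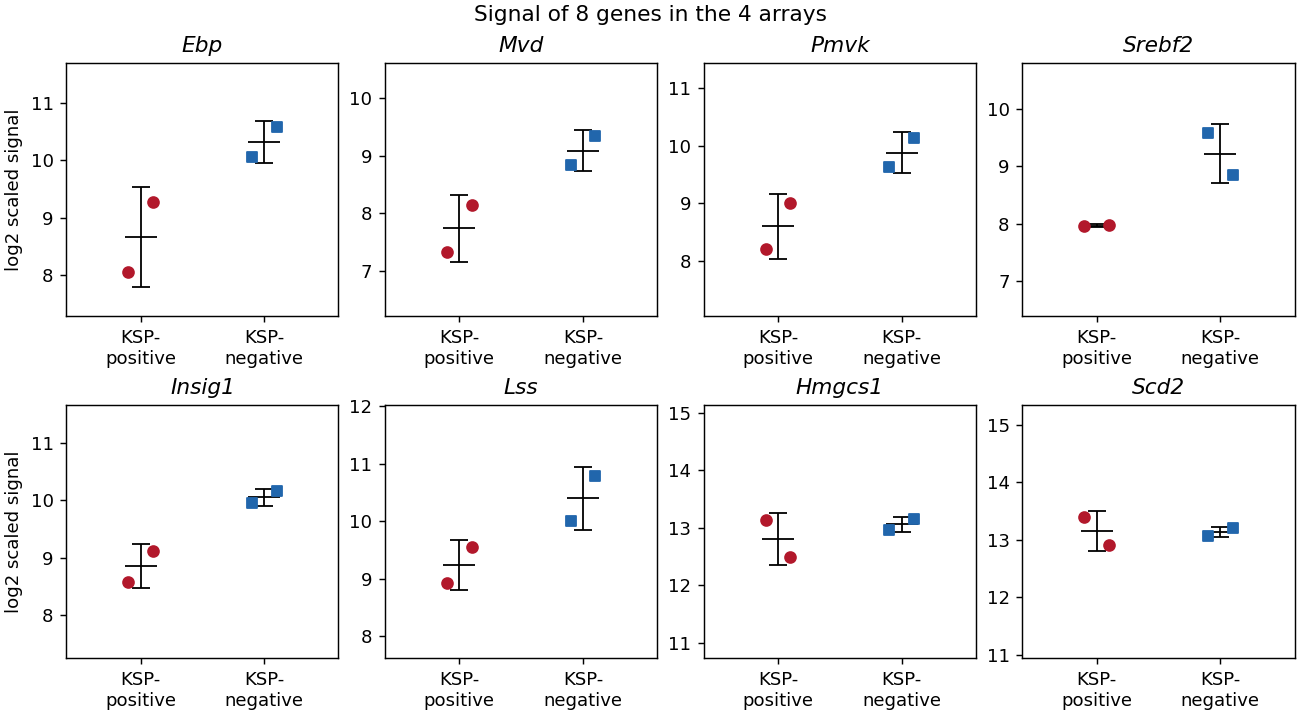
Log2 scaled signal (vertical axis, the same span in each panel) of 8 genes in KSP-positive (red circles) and KSP-negative cells (blue squares), 2 arrays each, with bars for the mean and whiskers for the SD. The fractions do not overlap for Ebp, Mvd, Pmvk, Srebf2, Insig1 and Lss, and overlap for Hmgcs1 and Scd2.

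In the mevalonate part of the pathway, by the brightest probe set of each gene, the middle enzymes stood lowest in KSP-positive cells. By the same measure the entry enzyme overlapped between the fractions. Hmgcs1, which makes HMG-CoA at the entry of the pathway, had a log2 signal of 13.13 and 12.48 in KSP-positive cells, against 12.96 and 13.15 in KSP-negative cells. The fractions overlapped, with a difference of -0.25 (95% confidence interval -0.98 to 0.48, adjusted p = 0.757). The dimmer probe sets of Hmgcs1 were lower too. Those with differences of -0.40, -0.59 and -1.52 did not overlap, and that with -0.72 did. The contrast of Hmgcs1 with the middle enzymes therefore depends on the probe set. Mvk, the kinase that acts on mevalonate, had 5.96 and 7.55 in KSP-positive cells, against 6.70 and 7.14 in KSP-negative cells. Its KSP-positive arrays were the lowest and the highest of the 4, so that its interval was wide (-1.35 to 1.02).

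Pmvk and Mvd follow Mvk, Pmvk adding a further phosphate and Mvd removing a carboxyl group to give isopentenyl diphosphate. Pmvk had a log2 signal of 8.20 and 9.00 in KSP-positive cells, against 9.63 and 10.13 in KSP-negative cells. This was a 2.43-fold lower mean in KSP-positive cells (log2 difference -1.28 ± 0.39, SE, adjusted p = 0.111 from limma). Mvd had 7.33 and 8.15 in KSP-positive cells, against 8.84 and 9.34 in KSP-negative cells, a 2.56-fold lower mean (difference -1.35 ± 0.40, SE, adjusted p = 0.103). For both genes KSP-positive replicate 1 was the lowest array and KSP-negative replicate 2 the highest, and between the 2 arrays of low actin ratio the differences were -0.63 for Pmvk and -0.69 for Mvd. Without KSP-positive replicate 1 the differences were -0.88 for Pmvk and -0.94 for Mvd. Without KSP-positive replicate 2 they were -1.68 for Pmvk and -1.77 for Mvd. Either omission leaves 1 KSP-positive array.

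Idi1, which isomerises isopentenyl diphosphate, had a log2 signal of 10.95 and 11.19 in KSP-positive cells, against 11.45 and 12.26 in KSP-negative cells (difference -0.78, adjusted p = 0.290). Fdps, which joins isoprenoid units to farnesyl diphosphate, had 8.28 and 8.59, against 9.03 and 8.99 (difference -0.58, adjusted p = 0.429). Neither overlapped between the fractions by these probe sets, and both intervals reached above 0, to 0.02 for Idi1 and 0.20 for Fdps. A second probe set of Idi1, nearly as bright, had 11.42 and 11.16 in KSP-positive cells, against 11.07 and 12.19 in KSP-negative cells. By it the fractions overlapped (difference -0.34), so that the lack of overlap of Idi1 depends on the probe set.

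The enzymes from squalene to lanosterol also had lower means in KSP-positive cells. Lss, lanosterol synthase, which closes the sterol rings, had a log2 signal of 8.93 and 9.55 in KSP-positive cells, against 10.01 and 10.79 in KSP-negative cells. Its mean was 2.24-fold lower (difference -1.16 ± 0.39, SE, adjusted p = 0.146), but a dimmer probe set of Lss went the other way, with 8.84 and 8.01 in KSP-positive cells, against 7.19 and 8.46 in KSP-negative cells (difference 0.60). The direction of Lss therefore depends on the probe set, and a further probe set lay at the floor in 3 of the 4 arrays. Sqle, squalene epoxidase, an oxygen-dependent and often rate-limiting step, had 10.67 and 11.07 in KSP-positive cells, against 11.45 and 11.60 in KSP-negative cells (difference -0.66, adjusted p = 0.332). Fdft1, squalene synthase, had 11.37 and 11.41, against 11.22 and 12.30, so that the fractions overlapped (difference -0.38). Its KSP-negative arrays lay further apart than their distance from the KSP-positive ones. A dimmer probe set of Fdft1 did not overlap, with 9.59 and 10.22 in KSP-positive cells, against 10.84 and 10.67 in KSP-negative cells (difference -0.85).

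Between lanosterol and cholesterol, the isomerase Ebp had the lowest difference of the 28 genes, while the demethylation enzymes Nsdhl and Hsd17b7 had means close to each other in the fractions. Ebp, which moves a double bond within the sterol ring, had a log2 signal of 8.05 and 9.28 in KSP-positive cells, against 10.06 and 10.57 in KSP-negative cells. The mean was 3.13-fold lower (difference -1.65 ± 0.44, SE, 95% confidence interval -2.62 to -0.68, adjusted p = 0.0719), and 2.54% of all genes had a lower difference. The KSP-positive replicates of Ebp differed by more than those of KSP-negative cells, with a SD of 0.87 against 0.36. Without KSP-positive replicate 1 its difference was -1.03, and without KSP-positive replicate 2 it was -2.26, each with 1 KSP-positive array left.

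Cyp51, which removes a methyl group of lanosterol, had 10.53 and 10.55 in KSP-positive cells, against 11.01 and 11.00 in KSP-negative cells. By this brightest probe set its replicates were the closest together of the 28 genes, with a SD of 0.02 and 0.01. The difference of -0.46 was small (adjusted p = 0.500 from limma, which pools the spread over genes). A dimmer probe set of Cyp51 had 10.23 and 9.55, against 10.00 and 10.01, so that the fractions overlapped (difference -0.12). The dimmest did not overlap (difference -0.21). The closeness of the replicates of Cyp51 therefore depends on the probe set. Tm7sf2, a sterol reductase, had 7.86 and 8.63, against 9.21 and 8.78 (difference -0.75, adjusted p = 0.356), and Sc5d, a sterol desaturase, had 9.01 and 9.09, against 9.54 and 9.32 (difference -0.38, adjusted p = 0.617), both without overlap by these probe sets. A dimmer probe set of Sc5d had 8.77 and 8.22, against 8.72 and 7.93, which overlap (difference 0.17). The dimmest did not overlap (difference -0.95), so that the direction of Sc5d depends on the probe set. Nsdhl had 9.48 and 9.65 in KSP-positive cells, against 9.59 and 9.38 in KSP-negative cells, a difference of 0.08 with an interval of -0.66 to 0.83. Hsd17b7 had 10.58 and 10.11, against 10.33 and 10.36, a difference of -0.00077 with an interval of -0.75 to 0.75. These intervals leave room for a difference of more than 1.5-fold either way. Dhcr7, which completes cholesterol, had 9.19 and 9.11, against 9.10 and 10.00, and only KSP-negative replicate 2 stood apart (difference -0.40, adjusted p = 0.653).

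**Figure D2:**
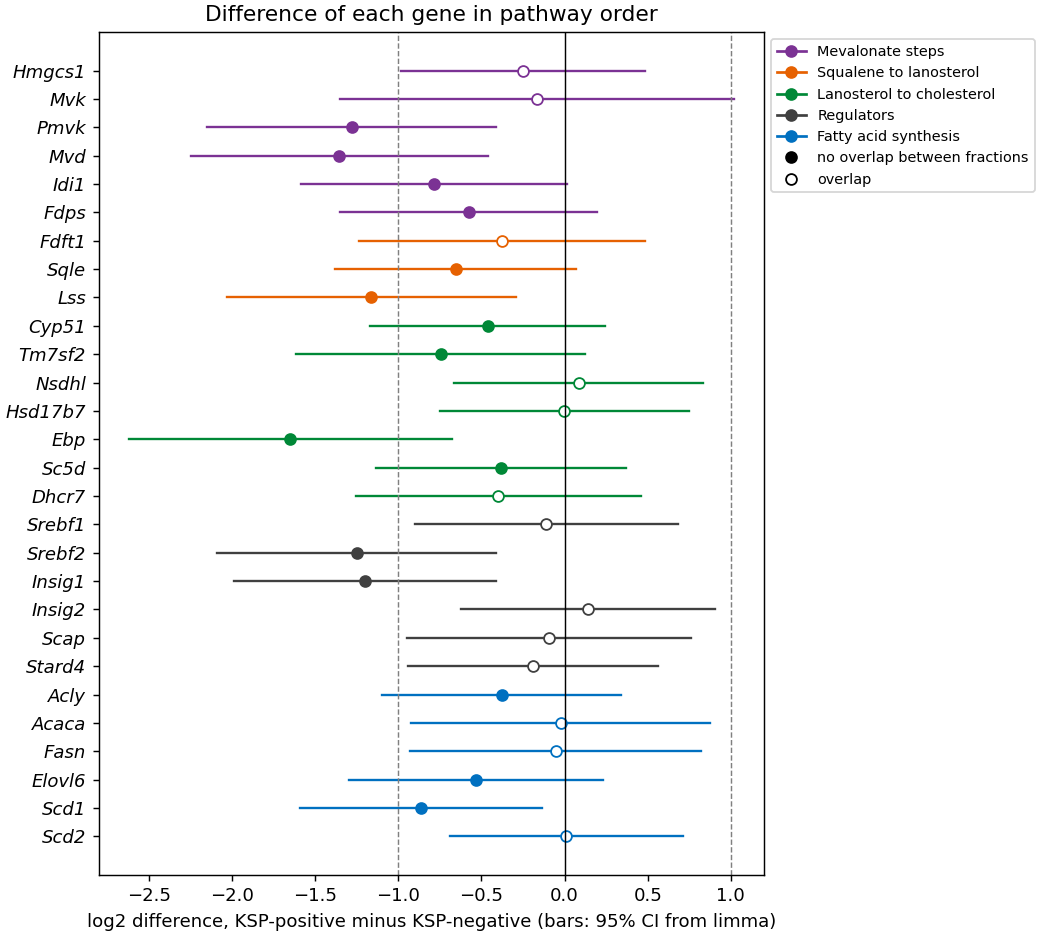
Log2 difference, KSP-positive minus KSP-negative (horizontal axis, 2 arrays each), of the 28 genes in pathway order (vertical axis), with 95% confidence intervals from limma, filled points where the fractions did not overlap and dashed lines at a 2-fold difference. Ebp lies lowest at -1.65, and Insig2 highest at 0.14.

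Among the regulators, Srebf2 and Insig1 were over 2-fold lower by their means without passing the test, while the fractions overlapped for their relatives Srebf1 and Insig2. Srebf2, whose protein acts mainly on cholesterol genes, had a log2 signal of 7.95 and 7.98 in KSP-positive cells, against 9.58 and 8.85 in KSP-negative cells. Its mean was 2.38-fold lower (difference -1.25 ± 0.38, SE, adjusted p = 0.106), and a second probe set gave 6.52 and 7.10, against 8.25 and 8.36 (difference -1.50). Its difference was -1.60 between the arrays of low actin ratio and -0.90 between those of high ratio. Srebf1, whose protein acts mainly on fatty acid genes, had 9.26 and 9.64 in KSP-positive cells, against 9.32 and 9.79 in KSP-negative cells, which overlap (difference -0.11, 95% confidence interval -0.90 to 0.68).

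Insig1, itself a target of SREBPs and a brake on them, had 8.58 and 9.12 in KSP-positive cells, against 9.95 and 10.15 in KSP-negative cells. Its mean was 2.30-fold lower (difference -1.20 ± 0.36, SE, adjusted p = 0.101), with -0.83 between the arrays of low actin ratio. Insig2, the second Insig protein, had 10.28 and 10.32 in KSP-positive cells, against 10.43 and 9.88 in KSP-negative cells, a difference of 0.14 (95% confidence interval -0.62 to 0.91). Its dimmer probe sets gave differences of 0.54 and 0.61 and did not overlap, so that none of the 3 probe sets of Insig2 was lower in KSP-positive cells. Whether relatives differed from each other was not tested.

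Scap had 8.45 and 9.13 in KSP-positive cells, against 8.64 and 9.13 in KSP-negative cells (difference -0.09, adjusted p = 0.935). Stard4, which carries cholesterol between membranes, had 10.27 and 10.38, against 10.75 and 10.28 (difference -0.19, adjusted p = 0.829). Both overlapped between the fractions.

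The promoters of 4 of the 6 genes over 2-fold lower, with that of Hmgcs1, are shown because SREBPs act on such genes together with NF-Y, which binds the CCAAT box. Each line gives the 250 bases before the start site, 5' to 3' on the strand of the gene, from RefSeq on GRCm38.p6. Capitals mark the letters CCAAT or their reverse complement ATTGG, the GC box GGGCGG or CCGCCC, the E-box CACGTG, and TCACNCCAC, letters of a sterol regulatory element, with both strands searched.
Ebp (chrX:8193513-8193762, minus strand): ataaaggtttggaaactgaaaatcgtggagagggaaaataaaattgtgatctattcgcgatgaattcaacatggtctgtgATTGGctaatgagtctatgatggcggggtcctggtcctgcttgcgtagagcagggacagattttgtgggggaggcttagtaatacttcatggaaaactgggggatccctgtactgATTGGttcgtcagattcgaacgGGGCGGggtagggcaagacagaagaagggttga
Mvd (chr8:122443423-122443672, minus strand): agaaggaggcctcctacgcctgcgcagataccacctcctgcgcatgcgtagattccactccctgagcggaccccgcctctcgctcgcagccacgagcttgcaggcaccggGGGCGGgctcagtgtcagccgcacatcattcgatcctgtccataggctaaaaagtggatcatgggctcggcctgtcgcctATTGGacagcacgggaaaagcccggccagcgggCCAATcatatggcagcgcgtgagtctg
Srebf2 (chr15:82147019-82147268, plus strand): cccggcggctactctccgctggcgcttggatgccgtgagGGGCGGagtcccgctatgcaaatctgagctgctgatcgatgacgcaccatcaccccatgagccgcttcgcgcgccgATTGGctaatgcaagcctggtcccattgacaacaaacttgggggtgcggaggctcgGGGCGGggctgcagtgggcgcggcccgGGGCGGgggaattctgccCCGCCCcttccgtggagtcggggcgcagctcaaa
Insig1 (chr5:28071162-28071411, plus strand): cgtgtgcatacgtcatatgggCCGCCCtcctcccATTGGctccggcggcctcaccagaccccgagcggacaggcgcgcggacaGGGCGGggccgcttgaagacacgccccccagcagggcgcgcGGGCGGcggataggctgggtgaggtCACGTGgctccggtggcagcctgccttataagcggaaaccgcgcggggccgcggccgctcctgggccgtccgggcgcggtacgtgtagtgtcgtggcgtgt
Hmgcs1 (chr13:119690101-119690350, plus strand): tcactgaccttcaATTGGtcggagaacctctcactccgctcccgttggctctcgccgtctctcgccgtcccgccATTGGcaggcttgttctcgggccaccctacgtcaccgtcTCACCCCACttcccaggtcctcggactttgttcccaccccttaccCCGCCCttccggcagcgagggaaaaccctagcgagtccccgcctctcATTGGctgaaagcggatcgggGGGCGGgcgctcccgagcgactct
Of the 28 genes, 22 had an entry of 300 bases, 250 before to 50 after the start, and the matches are a description of letters, not of sites. CCAAT was found for 19 of the 22 (86.4%) and for 13 of 13 sterol enzymes, where it was found for 42.6% of 10357 genes tested on the arrays that had an entry. The GC box was found for 18 of 22 (81.8%, against 67.7%) and the E-box for 5 of 22 (22.7%, against 11.6%), Insig1 among them. TCACNCCAC was found for Hmgcs1 only (4.55%, against 1.38%). No match of a motif overlapped that of another in these 22 genes, and a gene with several start sites counted when any of its windows held the letters. Pmvk and Lss, also over 2-fold lower, are not shown. Lss held the letters of CCAAT and of the GC box. Pmvk held CCAAT in 1 window and the GC box in none, and its other window held no match of any of these motifs.

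In fatty acid synthesis Acaca and Fasn overlapped between the fractions, and Scd1 had the lowest difference of the 6. Acaca, which makes malonyl-CoA, had 8.77 and 8.60 in KSP-positive cells, against 8.21 and 9.21 in KSP-negative cells, and Fasn, fatty acid synthase, had 10.32 and 10.07, against 9.74 and 10.76. For both genes the KSP-positive values lay between the 2 KSP-negative values, with differences of -0.02 (95% confidence interval -0.92 to 0.88) and -0.05 (-0.93 to 0.82). Acly, which supplies acetyl-CoA from citrate, had 12.31 and 12.17, against 12.36 and 12.88, without overlap and with a difference of -0.38 (adjusted p = 0.598).

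Scd1, a desaturase that makes monounsaturated fatty acids, had 9.82 and 10.08 in KSP-positive cells, against 10.77 and 10.86 in KSP-negative cells. Its mean was 1.82-fold lower (difference -0.86 ± 0.33, SE, adjusted p = 0.197). Scd2, the isoform of brain and developing tissues, had 13.39 and 12.90, against 13.07 and 13.20, which overlap, with a difference of 0.01 (95% confidence interval -0.69 to 0.71). Elovl6, which lengthens palmitate, had 9.93 and 10.17, against 10.33 and 10.84, without overlap (difference -0.53, adjusted p = 0.466). The dimmest of the 3 probe sets of Elovl6 had a difference of -1.32.

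The probe sets of a gene mostly had the same sign. Of the 65 probe sets, 56 passed the filter on dim signals and 9 did not, and all 28 genes passed through at least 1 of them. Of the 56, 47 had a lower mean in KSP-positive cells and 9 a higher one. Over all 22618 single-gene probe sets past the filter, 52.5% had a lower mean. The median log2 difference of the 56 was -0.43, against -0.04 over the 22618. Over 2-fold, 10 of the 56 were lower and 0 higher, against 7.3% and 7.33% of the 22618. With every probe set fitted in limma, the lowest adjusted p of the 56 was 0.0795. It belonged to a probe set of Hmgcs1 with 8.73 and 8.89 in KSP-positive cells, against 10.61 and 10.04 in KSP-negative cells (difference -1.52), while the brightest of the 5 probe sets of Hmgcs1 gave -0.25. Among 15 genes with several probe sets past the filter, the signs differed in 4, Lss, Sc5d, Hsd17b7 and Scd2. For Mvk a probe set under the filter gave a difference of 1.37, so that the mean over its probe sets was higher in KSP-positive cells (0.60).

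**Figure D3:**
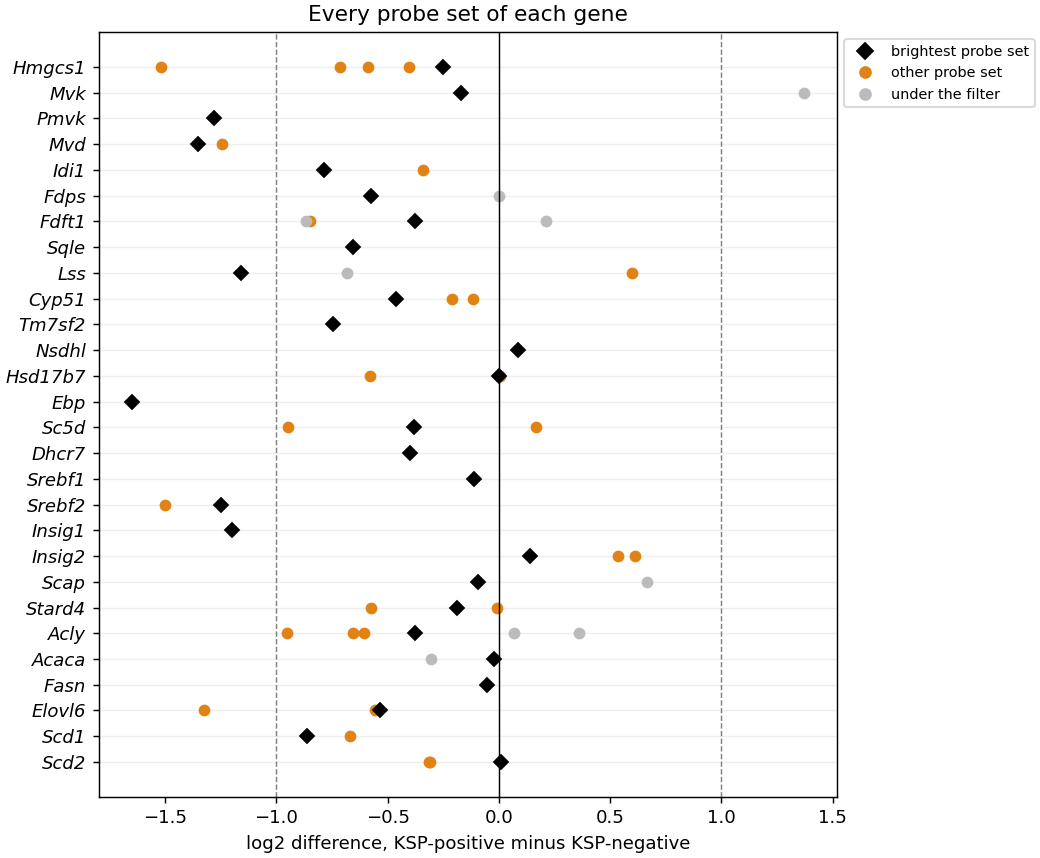
Log2 difference, KSP-positive minus KSP-negative (horizontal axis, 2 arrays each), of each of the 65 probe sets of the 28 genes (vertical axis), with diamonds for the brightest probe set, which stands for its gene, orange points for other probe sets and grey points for those under the filter. The 5 probe sets of Hmgcs1 spread from -1.52 to -0.25, and those of Lss lie on both sides of 0.

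The single arrays of a fraction were not alike in these genes. The median of the 28 genes in each array was 9.37 and 9.64 for KSP-positive cells (replicate 1, then 2), against 9.98 and 10.21 for KSP-negative cells. KSP-positive replicate 1 was the lowest of the 4 arrays for 18 genes, and KSP-negative replicate 2 the highest for 16. These counts were not made over all genes. The mean log2 signal of all genes tested was 8.36 and 8.39 in KSP-positive arrays, against 8.30 and 8.48 in KSP-negative arrays. It was thus also highest in KSP-negative replicate 2, but lowest in KSP-negative replicate 1. By stage, the median log2 difference was -0.68 for the 6 mevalonate enzymes, -0.66 for the 3 enzymes from squalene to lanosterol, -0.40 for the 7 later enzymes, -0.15 for the 6 regulators and -0.22 for the 6 fatty acid enzymes. These stages hold few genes each and were not tested against each other.

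The other genes of sterol and fatty acid metabolism had list medians from -0.26 to 0.38. Over all genes, limma called 1.84% higher and 1.65% lower, and 9.05% and 8.72% had an unadjusted p under 0.05. Of 10 further genes of sterol and isoprenoid synthesis, 0 were called higher and 0 lower by limma, and 0 of 10 had an unadjusted p under 0.05, with a median of -0.07. The smallest p-values were those of Acat1, which joins acetyl-CoA units, with a difference of 0.57 (adjusted p = 0.387), of Erg28 with one of -0.63, of Dhdds, which makes dolichol, with 0.50, and of Coq2, of ubiquinone synthesis, with -0.34. Of 15 genes of SREBP processing and of HMG-CoA reductase turnover, 0 were called and 0 had an unadjusted p under 0.05, with a median of -0.19. The smallest p-values were those of Vcp, which extracts proteins from the endoplasmic reticulum, with a difference of -0.66 (adjusted p = 0.320), of Erlin2, which takes part in reductase breakdown, with 0.63 (0.373), of Prkaa1, a subunit of the kinase AMPK, with 0.60, and of Pgrmc1 with 0.56.

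Of 29 further genes of fatty acid synthesis, lengthening and desaturation, Fads3 rose, Elovl7 fell and 27 did not pass the test, with a median of -0.26. Of all genes, 1.84% were called higher and 1.65% lower. Fads3, of the fatty acid desaturase family, had 8.27 and 8.22 in KSP-positive cells, against 6.70 and 6.26 in KSP-negative cells, and was 3.40-fold higher (adjusted p = 0.0346 from limma). Elovl7, an elongase of long-chain fatty acids, had 6.99 and 6.40, against 8.35 and 8.44, and was 3.25-fold lower (adjusted p = 0.0408). Both calls were lost when KSP-negative replicate 2 was left out (adjusted p = 0.192 and 0.212). They were lost too when probe sets were averaged (0.172 and 0.114). That of Fads3 was also lost without KSP-positive replicate 1 (0.0820), and that of Elovl7 without KSP-positive replicate 2 (0.106) or KSP-negative replicate 1 (0.0849). Acsl3, which activates fatty acids, had a difference of -1.18 (adjusted p = 0.103), and Hacd4, of the elongation cycle, 1.18 (adjusted p = 0.156).

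Genes that take up, move or dispose of sterols had higher medians in KSP-positive cells. Of 23 genes of uptake and transport, 0 were called higher and 0 lower by limma, with a median of 0.34. Before adjustment 4 higher and 1 lower had a p under 0.05, against 9.05% and 8.72% of all genes. Gramd1a, which carries cholesterol from the plasma membrane, had a difference of 1.41 (adjusted p = 0.0788), Osbpl8, a lipid transfer protein, 1.25 (0.133), Lrp1, a receptor for lipoproteins, 0.98 (0.176), and Lrp8, a receptor of the same family, -1.0 (0.206). Of 15 genes of oxysterols, liver X receptor and efflux, 1 was called higher, 0 lower and 14 did not pass the test, with a median of 0.38. Among all genes, 1.84% were called higher and 1.65% lower. Cyp7b1, which hydroxylates oxysterols, had 9.28 and 9.04 in KSP-positive cells, against 7.65 and 7.37 in KSP-negative cells, and was 3.14-fold higher (adjusted p = 0.0333). Its call was lost when KSP-positive replicate 1 (0.125) or KSP-negative replicate 2 (0.154) was left out, on the deposited scale (0.0953) and as the mean of its probe sets (0.114).

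Abca1, the exporter of cholesterol, had 11.36 and 10.62 in KSP-positive cells, against 9.77 and 8.39 in KSP-negative cells (difference 1.91, adjusted p = 0.0532). Ch25h, which makes an oxysterol that blocks SREBP release, had 10.07 and 9.79, against 9.03 and 7.59 (difference 1.62, adjusted p = 0.0895), and Pltp, a phospholipid transfer protein, a difference of 1.14 (adjusted p = 0.180). These fractions did not overlap, and KSP-negative replicate 2 was the lowest array for each of the 3. Abca1, Ch25h and Pltp are also expressed by macrophages, and the macrophage markers moved in the same direction as given above. Their part in these values was not tested.

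**Figure D4:**
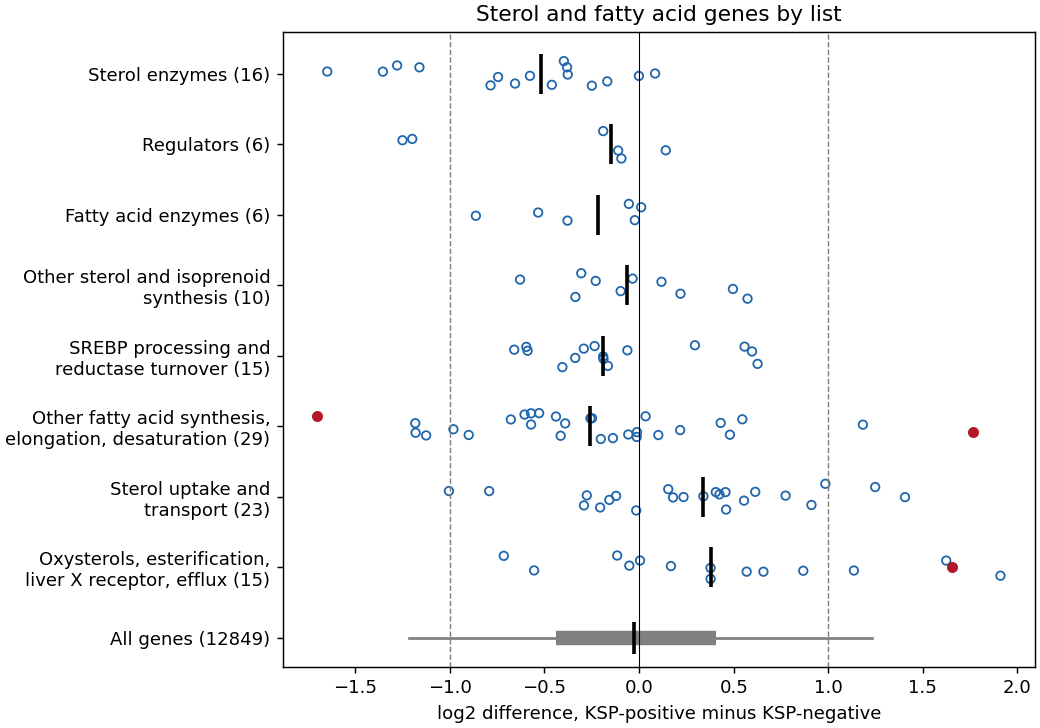
Log2 difference, KSP-positive minus KSP-negative (horizontal axis, 2 arrays each), of each tested gene in 8 groups (vertical axis, with the number of genes), filled red where the adjusted p from limma was under 0.05 and open otherwise, with black bars for medians. The grey box spans the 25th to 75th percentile of all genes and the grey line the 5th to 95th. Sterol enzymes have a median of -0.52, and genes of oxysterols and efflux one of 0.38.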

How the data were processed

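RNA of 2 KSP-positive and 2 KSP-negative samples was labelled with biotin after 2 cycles of cDNA synthesis and hybridized by the authors to Affymetrix mouse genome arrays. The deposited values are MAS5 signal intensities on a linear scale, 1 per probe set and array, per the labels (version not given in the sources used here). The study analysed them in GeneSpring with a setting that the methods do not name.

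Signals were multiplied by 1 factor per array to a 75th percentile of 281, raised to 12.3 (the 20th percentile) where lower, and log2 was taken. There are 64 control probe sets and 45037 others, of which 34945 name 1 gene, 932 several and 9160 no gene. A mean log2 signal over 5.14 (the 40th percentile) was required, and a gene was represented by its brightest single-gene probe set, which left 12849 genes. Both fractions were fitted in limma 3.58.1 (R 4.3.3), with empirical Bayes, an intensity trend, two-sided p-values and Benjamini-Hochberg adjustment over all genes tested. The procedure was tested on simulated data. With so few arrays an exact permutation test can give no p under 0.05 and was not used. The number of arrays limits the precision. No source says that a replicate number marks 1 experiment, so replicates were not paired.

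The 28 genes and the lists were chosen with earlier results of these data known. Values were given for each of the 28 genes, and for genes of the lists past the threshold or among the 4 with the smallest p of a list. Listed genes that had no single-gene probe set are not analysed here. Alternatives were other scalings, floors, filters, summaries of probe sets, empirical Bayes settings, a replicate block, the methods' t-test and each array left out. The comparison of arrays of like actin ratio was added after seeing the data. Promoter sequences are from RefSeq (GRCm38.p6). Figures were drawn with matplotlib 3.10.9.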

Additional observations from a re-analysis of the deposited data

How the results depend on the processing

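No adjusted p under 0.05 was reached by any of the 28 genes under other scalings, floors or filters, averaged probe sets, probe sets taken singly, other empirical Bayes settings or the methods' t-test after adjustment. In a fit with a replicate block, 6 of the 28 were called lower, Ebp (adjusted p = 0.00571), Pmvk (0.0177), Mvd (0.0188), Insig1 (0.0240), Lss (0.0267) and Srebf2 (0.0311), and over all genes 571 were higher and 560 lower, 7 and 2 of them in the other lists. Same-numbered arrays deviated together with a correlation of 0.17 over all genes and 0.07 over the 28, with only 2 numbers. The study collected both fractions in 2 independent experiments, but no source says that arrays with the same replicate number share an experiment.

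Without each array in turn, 0 to 3 of the 28 genes were called lower and 2 to 7 were over 2-fold lower, with 0 higher, and their median ran from -0.56 to -0.33. Each of these fits leaves 1 array in 1 fraction, which then has no replicate. Over all genes the calls ran from 72 to 368 higher and from 52 to 424 lower, with 1055 to 1362 over 2-fold higher and 829 to 1672 over 2-fold lower. In the other lists they ran from 0 to 7 higher and from 0 to 1 lower, with 7 to 13 and 2 to 8 over 2-fold and a median from -0.058 to 0.051. With arrays of high actin ratio only, the 28 genes had a median of -0.76, and 1550 genes in all were over 2-fold higher and 2244 lower, while with arrays of low ratio 1 of the 28 was over 2-fold lower. By probe set, 10 probe sets of the 28 genes and 15 of the other lists were over 2-fold lower, among 1652 lower and 1657 higher in all, with a median of -0.10 in the other lists.

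Over all genes, 352 were lower with the values as deposited, 123 higher and 109 lower with averaged probe sets, 0 either way with no filter or with the methods' t-test after adjustment, and 666 higher and 570 lower by that test unadjusted. With a filter at the 60th percentile 643 genes were over 2-fold lower. In the other lists, 0 were called higher or lower with no filter, with the mean of probe sets, with every probe set alone or with the adjusted t-test, and 6 higher and 3 lower with the unadjusted t-test, which called 2 of the 28 lower. Without the intensity trend 1 was higher and 0 lower. With the values as deposited the median of the other lists was -0.13.

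The differences of 13 of the 28 genes, none of them over 2-fold or called, changed sign under at least 1 alternative. With the values as deposited, Nsdhl was at -0.0065 and Scd2 at -0.080. With quantile normalization, Hsd17b7 was at 0.065, Acaca at 0.016 and Fasn at 0.027. With the mean of probe sets, Mvk was at 0.60, Scap at 0.29 and Scd2 at -0.20. With arrays left out in turn, the differences ran from -0.57 to 0.074 for Hmgcs1, -0.96 to 0.63 for Mvk, -0.92 to 0.16 for Fdft1, -0.022 to 0.19 for Nsdhl, -0.23 to 0.23 for Hsd17b7, -0.85 to 0.056 for Dhcr7, -0.35 to 0.13 for Srebf1, -0.13 to 0.42 for Insig2, -0.43 to 0.25 for Scap, -0.43 to 0.049 for Stard4, -0.52 to 0.48 for Acaca, -0.56 to 0.46 for Fasn and -0.23 to 0.26 for Scd2. The cause of these changes was not tested.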
